A study of Rattus norvegicus with 12 samples.

Results

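The collagen, laminin and elastic fibre genes of rat lung were followed across brain death and an injected receptor agonist. The genes were chosen by symbol in the array's annotation. They are the collagen chains, the laminin chains, the fibulins, the fibrillins and the lysyl oxidases, together with elastin (Eln), fibronectin (Fn1), the nidogens (Nid1 and Nid2), Sparc, Postn, Dcn, Lum and Bgn. This rule found 97 probe sets for 69 genes, out of 14217 genes measured with a probe set of 1 symbol. The rule reads symbols only, and it was written with earlier results of these data known.

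Lung tissue came from male wild-type Sprague Dawley rats of 250 to 350 g, with 3 Affymetrix arrays in each of 4 groups. Sham animals were the controls. BD animals underwent brain death, induced by a balloon catheter inflated in the extradural space. SEW animals received SEW-2871, an agonist of the sphingosine 1-phosphate receptor S1P1, intravenously at 0.1 mg/kg, and BD/SEW animals received that dose 15 min after brain death. Whether the SEW animals were also operated on is not stated. Agonist and operation therefore cannot be told apart in SEW against sham, nor brain death and operation in BD/SEW against SEW. Animals are not numbered in the labels, and the p-values therefore measure the spread between samples, which may be technical. The time between treatment and tissue sampling is not given in the sources used here.

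Fibrillar collagens form the tensile fibres of the lung wall, and elastin laid on fibrillin microfibrils gives the wall its recoil. Laminins, nidogens and type IV collagen form the basement membranes on which alveolar epithelium and endothelium rest. Lysyl oxidases cross-link collagen and elastin, and the small leucine-rich proteoglycans bind to collagen fibrils and regulate their width.

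Deposited log2 values of the 12 arrays had medians between 7.34 and 7.41. Precision is limited by the number of arrays. Lung epithelial markers were high throughout, with a mean of 12.74 to 13.43 over 6 alveolar type 2 markers and of 12.12 to 12.78 over 4 alveolar type 1 markers. Some arrays also held high levels of cardiac muscle and adipose markers, and the tissue these came from was not tested. Over 19 cardiac muscle markers, sham replicates 1 to 3 averaged 10.14, 9.67 and 9.17 and BD replicate 2 averaged 11.12, while the remaining 8 arrays averaged 5.69 to 7.84. Over 11 adipose markers, sham averaged 8.58 to 9.56 and BD replicate 2 averaged 9.06, while the rest averaged 6.24 to 7.16. The mean of the lung fibroblast markers (10 genes) stayed between 9.97 and 10.20 in every array, but single markers moved in both directions. From sham to BD the group mean of Tcf21 fell from 10.67 to 9.87 and that of Meox2 rose from 8.08 to 8.62. Pi16 was 11.16 in sham replicate 3 and 8.99 in SEW replicate 1. In tissue samples such as these, fewer cells of a type and less RNA per cell cannot be told apart.

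SEW replicate 2 stood apart for the matrix genes themselves. It was the lowest of the 12 arrays for 29 of the 69 genes (42%, against 17.6% of all genes) and the highest for 0. Sham replicate 3 was the lowest array for 16 of the 69 (23.2%, against 16.3% of all genes), and BD replicate 2 was the highest for 14 (20.3%, against 7.22%). Values without these arrays are given beside several of the results they move.

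**Figure D1:**
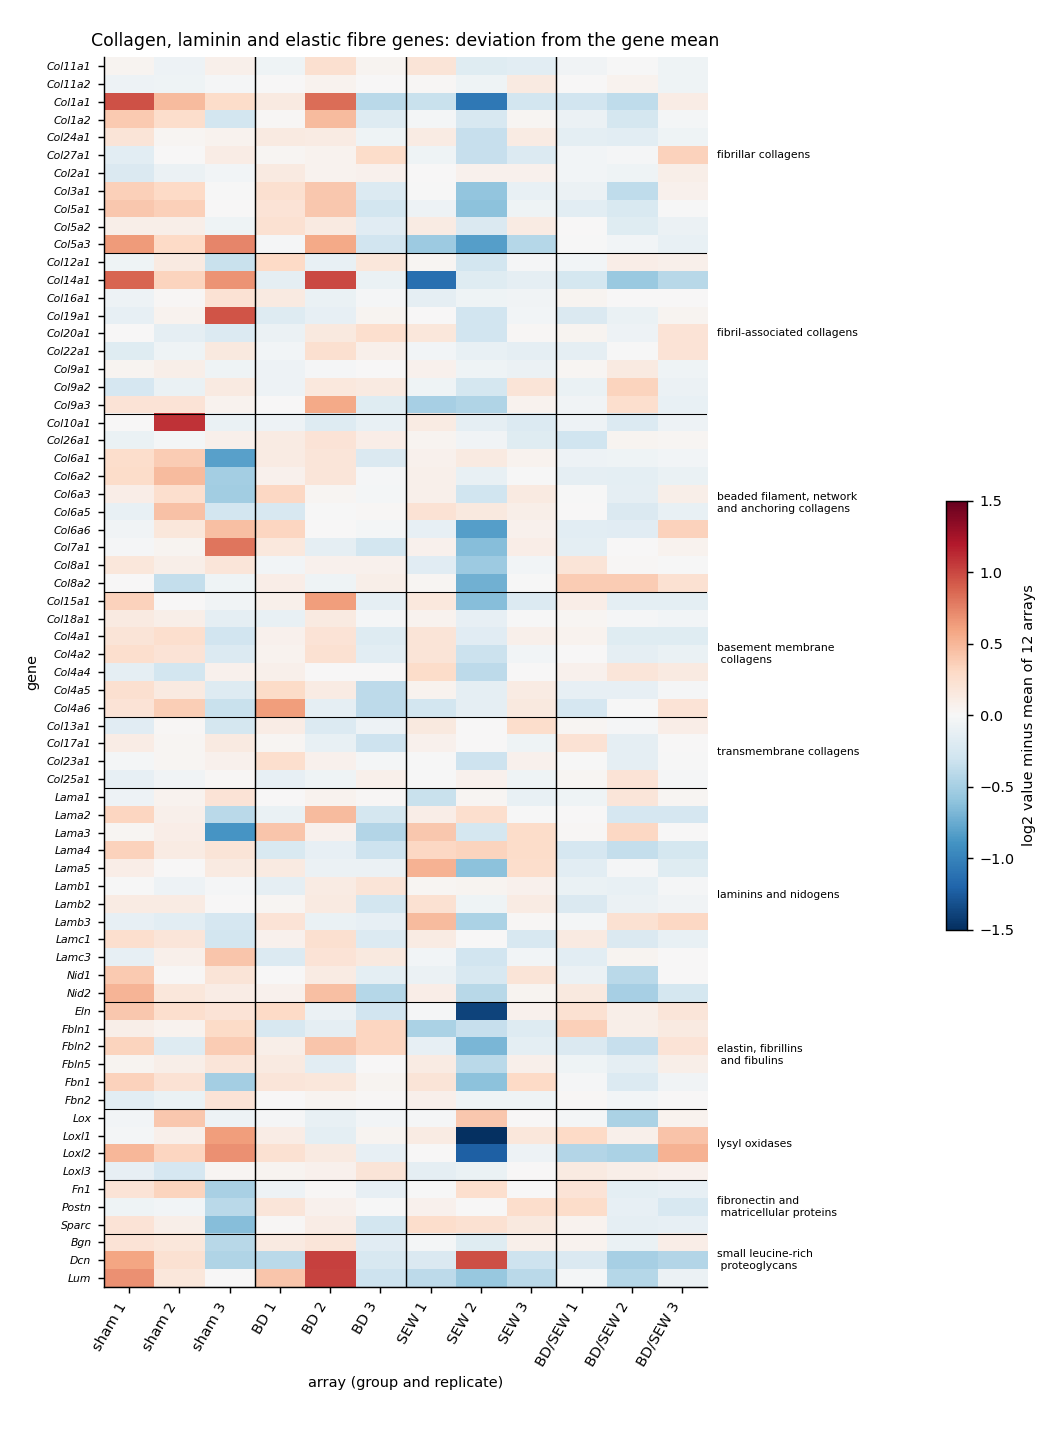
Deviation of each of the 69 genes (vertical axis, grouped by role) from its own mean over the 12 arrays (horizontal axis), in log2 units; red is above and blue below the mean, and the colour scale ends at 1.5 in each direction. SEW replicate 2 is the bluest column, with Loxl1, Eln, Loxl2 and Col1a1 among its lowest genes, and Col5a3 is red in the sham arrays and blue in the SEW arrays.

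Few of the matrix genes were called as different between groups of 3 arrays. In each comparison of 2 groups 62 to 69 of the 69 lay within 1.5-fold. Most genes of the array did too, since 2.5% to 9.21% of all genes differed by 1.5-fold or more in these comparisons. In SEW against sham 7 of the 69 did, beside 8.18% of all genes. A gene was called when its limma p, adjusted over all 14217 genes, was under 0.05. With this rule Lama4, the laminin alpha-4 chain, was lower in both comparisons of BD/SEW with animals without brain death, and Col5a3, a chain of type V collagen, was lower in SEW than in sham. No other gene of the 69 was called. The median half-width of the 95% confidence interval of a log2 difference was 0.35 (0.50 for the interaction). This interval is not adjusted over all genes, so a call in a typical gene needs a larger change than that. On simulated data for SEW against sham, 52.6% of genes changed 1.5-fold were found.

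In BD against sham 0 of 69 genes were called by limma, where 0.591% of all genes were called. At an unadjusted limma p under 0.05 there were 4 (5.8%, against 11% of all genes). The log2 differences ran from -0.47 to 0.26 with a median of -0.02, beside 0 for all genes. In SEW against sham 1 gene was called (5.84% of all genes), the differences ran from -1.16 to 0.39, and the median was -0.06 beside 0.02. In BD/SEW against BD 0 of 69 were called (0.0141% of all genes), with a smallest adjusted p of 0.91. At an unadjusted limma p under 0.05 there were also 0 of 69 (5.44% of all genes). The median in BD/SEW against BD was -0.09 beside 0.01, and 68 of the 69 genes lay within 1.5-fold (2.5% of all genes did not). Between BD/SEW and SEW 1 gene was called (9.79% of all genes), with a median of 0.03 beside -0.01. Between BD/SEW and sham 1 gene was called (2.87% of all genes), with a median of -0.11 beside 0.01. The interaction asks whether the brain-death difference depends on the agonist. For it 0 of 69 genes were called by limma, where 0.95% of all genes were called. At an unadjusted limma p under 0.05 there were 4 (5.8%, against 12.5% of all genes).

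**Figure D2:**
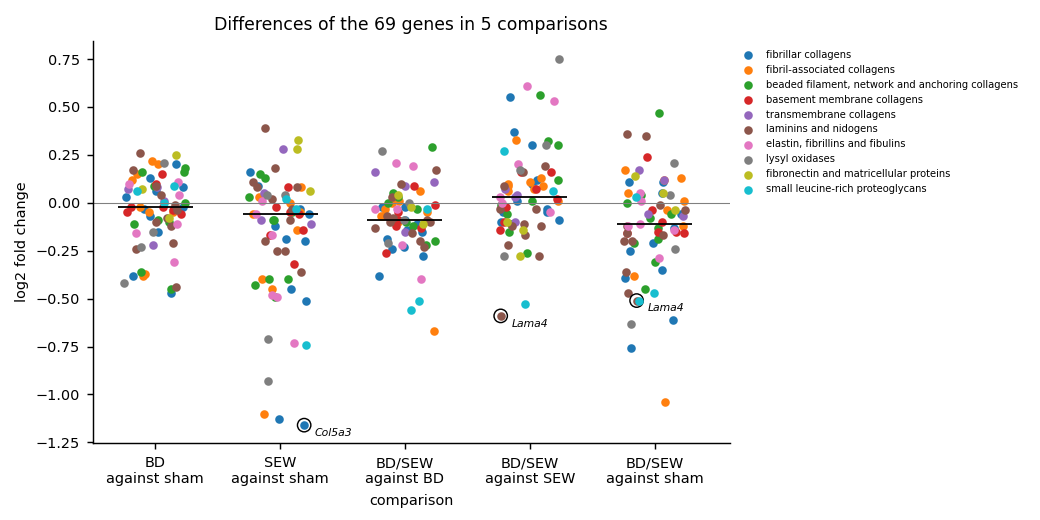
Log2 fold change (vertical axis) of each of the 69 genes in 5 comparisons (horizontal axis), coloured by role; each point is 1 gene, the bar is the median, and a ring with a name marks a called gene. Most points lie near 0, Lama4 is ringed at -0.59 and -0.51, and Col5a3 is ringed at -1.16 in SEW against sham.

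The arrays of 2 groups did not overlap for a few genes in each comparison. In BD against sham 5 genes were higher without overlap (7.95% of all genes were) and 3 lower (7.74%). In SEW against sham the counts were 3 higher (16.4% of all genes) and 10 lower (10.6%). Between BD/SEW and BD they were 1 higher (7.9%) and 4 lower (4.55%). The count of 10 lower in SEW against sham is near the 10.6% share among all genes. These 10 genes were Col5a3, Col1a1, Col14a1, Fbln1, Col8a1, Loxl2, Lum, Col5a1, Eln and Nid2. For Nid2 the gap was narrow, 8.58 in SEW replicate 1 against 8.59 in sham replicate 3. The second Eln probe set went the other way. Between BD/SEW and SEW 8 were higher (13.2% of all genes) and 5 lower (18.6%). Between BD/SEW and sham 3 were higher (13.7%) and 10 lower (12.2%). With the 6 arrays of animals with brain death set against the other 6, only Lama4 was lower without overlap (2.32% of all genes were), and only Loxl3, a lysyl oxidase, was higher (1.4%). Loxl3 ranged from 6.63 to 6.78 with brain death and from 6.34 to 6.62 without it. With the 6 arrays of agonist-treated animals set against the other 6, 0 of 69 genes were higher (0.703% of all genes) and 0 lower (0.281%).

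Lama4 encodes an alpha chain found in laminins of vascular basement membranes. Its log2 value was 11.21, 10.98 and 11.05 in the sham arrays and 11.17, 11.19 and 11.13 in the SEW arrays. It was 10.63, 10.74 and 10.55 in the BD arrays and 10.61, 10.50 and 10.60 in the BD/SEW arrays. Every array of an animal with brain death thus lay below every array of an animal without it. In BD/SEW against SEW Lama4 fell by 0.59 ± 0.09 (log2 difference ± SE, n = 3 per group; limma adjusted p = 0.0016; 95% confidence interval -0.79 to -0.40), which is a ratio of 0.663. In BD/SEW against sham it fell by 0.51 ± 0.09 (adjusted p = 0.013). In BD against sham the difference was -0.44 ± 0.09 and did not pass (adjusted p = 0.055). The difference in BD/SEW against SEW was called under 15 of 15 alternative settings. The one against sham was called under 11 of 15 and was lost without sham replicate 1 (adjusted p = 0.057), without BD/SEW replicate 2 (adjusted p = 0.083) and with the cardiac or adipose marker mean as a covariate (adjusted p = 0.27 and 0.50). Without BD replicate 2 BD against sham passed (-0.49 ± 0.10, adjusted p = 0.033).

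The interaction, which sets the Lama4 difference after brain death with the agonist against that without it, was -0.15 ± 0.12 and did not pass (adjusted p = 0.66; 95% confidence interval -0.42 to 0.12). SEW against sham was 0.08 ± 0.09 (adjusted p = 0.59), and BD/SEW against BD was -0.07 ± 0.09 (adjusted p = 0.99). A second probe set of Lama4 did not pass in any of these comparisons. Its values were 8.47, 7.65 and 8.28 in sham, 8.13, 7.31 and 7.16 in BD, 7.03, 7.45 and 7.56 in SEW, and 7.22, 6.73 and 7.81 in BD/SEW. All 4 groups overlapped there except sham and SEW, and BD/SEW against SEW was -0.09 ± 0.32 (adjusted p = 0.91). In BD against sham this probe set differed by -0.60 ± 0.32 (adjusted p = 0.58) and in BD/SEW against sham by -0.88 ± 0.32 (adjusted p = 0.2), the same sign as the main probe set. The calls for Lama4 were thus made in 1 of its 2 probe sets.

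Endothelial cells are a main source of this laminin, and their markers did not all move with it. The mean of the 7 measured endothelial markers was 11.64 to 11.87 in sham and 11.67 to 11.92 in BD, with 11.86 to 12.03 in SEW and 11.80 to 11.87 for BD/SEW. Of these, Cldn5, an endothelial tight junction gene, fell by 0.83 ± 0.13 in BD/SEW against SEW (adjusted p = 0.0025), while Kdr, the receptor for vascular endothelial growth factor, differed by 0.27 ± 0.13 (adjusted p = 0.23). The part of endothelial cell number in the Lama4 difference was not tested.

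The partner chains of Lama4 did not pass. Lamb1 was 10.51, 10.44 and 10.50 in sham, 10.38, 10.64 and 10.71 in BD, 10.55, 10.56 and 10.59 in SEW and 10.42, 10.41 and 10.50 in BD/SEW. Lamc1, the gamma chain that most lung laminins share, averaged 11.66 ± 0.29 in sham and 11.65 ± 0.22 in BD, with 11.57 ± 0.18 in SEW and 11.54 ± 0.18 for BD/SEW (SD, n = 3). Both showed differences within 0.13 of 0 in all 5 comparisons. Of the 12 laminins and nidogens, 1 fell in BD/SEW against SEW and 0 rose (9.79% of all genes were called there). Among them Lama5, the broadly expressed alpha-5 chain, had its lowest value of 10.16 in SEW replicate 2, and without that array it joined Lama4 among the genes called in BD/SEW against SEW.

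Adamtsl2, a secreted glycoprotein that binds fibrillin and latent TGF-beta complexes, is not one of the 69 genes but belongs to a list of 14 microfibril and elastic fibre accessories. It was 11.01, 10.94 and 11.07 in sham and 10.99, 10.96 and 11.18 in SEW. It was 10.49, 10.49 and 10.45 in BD and 10.33, 10.42 and 10.61 in BD/SEW. As with Lama4, the arrays with brain death all lay below those without. It fell by 0.53 ± 0.10 in BD against sham (n = 3 per group; limma adjusted p = 0.037), fell by 0.59 ± 0.10 in BD/SEW against SEW (adjusted p = 0.0026) and fell by 0.55 ± 0.10 in BD/SEW against sham (adjusted p = 0.013). With the cardiac marker mean as a covariate only BD/SEW against SEW passed (adjusted p = 0.0039, against 0.14 and 0.27), and BD against sham did not pass without sham replicate 3 (adjusted p = 0.077).

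**Figure D3:**
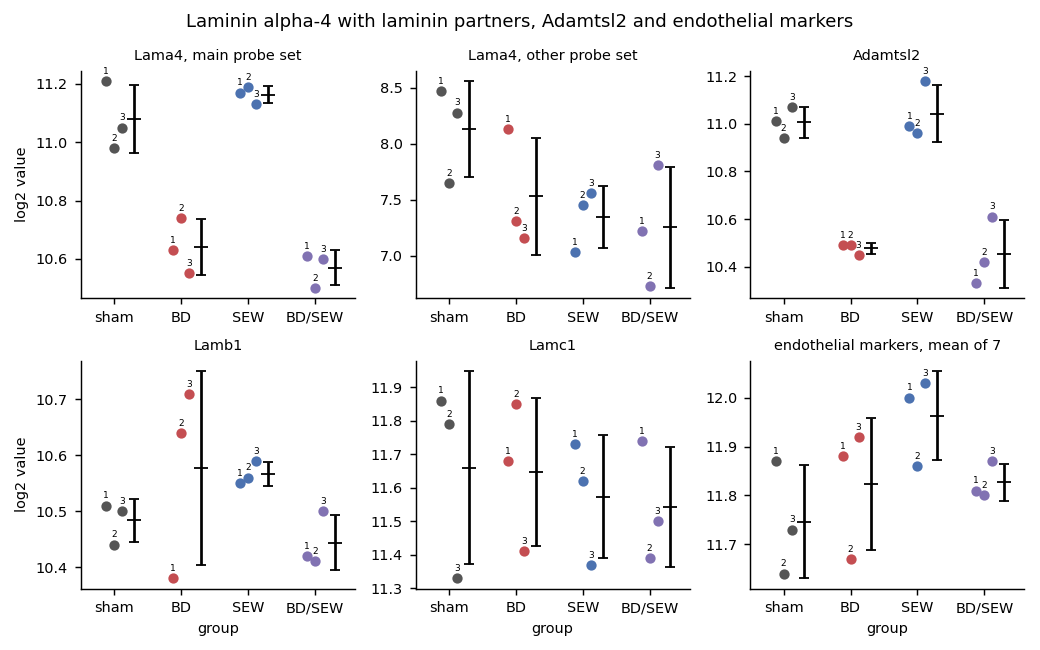
Log2 value (vertical axis) of both Lama4 probe sets, Adamtsl2, Lamb1 and Lamc1 and of the mean of 7 endothelial markers in the 4 groups (horizontal axis); points are arrays with their replicate number, and the bar is the mean ± SD (n = 3). In the main Lama4 probe set and in Adamtsl2 the BD and BD/SEW arrays lie below all others, while the second Lama4 probe set overlaps between groups.

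The windows around the starts of Lama4 and Adamtsl2 are printed because both genes were lower in every array with brain death than in every array without it. Each runs 5′ to 3′ from 250 bases before to 50 bases after the start, from RefSeq on build GRCr8, with capitals marking matches to TATAAA and GGGCGG, searched on both strands. Lama4 lies on the plus strand at chr20:43946648-43946947 and Adamtsl2 on the plus strand at chr3:30802450-30802749.
Lama4: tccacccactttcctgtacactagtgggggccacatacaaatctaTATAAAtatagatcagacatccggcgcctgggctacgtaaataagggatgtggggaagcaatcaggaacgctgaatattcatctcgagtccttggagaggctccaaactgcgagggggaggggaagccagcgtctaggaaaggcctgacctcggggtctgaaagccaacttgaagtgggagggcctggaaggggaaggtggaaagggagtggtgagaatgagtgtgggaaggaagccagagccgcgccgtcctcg
Adamtsl2: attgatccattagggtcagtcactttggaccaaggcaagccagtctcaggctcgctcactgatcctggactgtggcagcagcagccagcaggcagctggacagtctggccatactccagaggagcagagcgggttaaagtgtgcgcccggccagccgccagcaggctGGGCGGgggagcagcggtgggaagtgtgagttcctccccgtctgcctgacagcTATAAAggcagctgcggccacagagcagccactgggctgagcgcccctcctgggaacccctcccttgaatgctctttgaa

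The TATAAA match of Adamtsl2 begins at position -30 relative to the start and that of Lama4 at position -205. A TATAAA match was present in 14.2% of all 33469 windows and in 6 of the 51 matrix genes with a window (11.8%). GGGCGG was present in 33.1% of all windows and in 26 of the 51 (51%), and CCAAT in 37.5% and in 15 (29.4%). The units differ, because a matrix gene was counted when any of its windows held the match. The share of genes can therefore exceed the share of windows for that reason alone, and no enrichment is read from it. TATAAA and GGGCGG share no letter, so their matches cannot overlap, while CCAAT can overlap either at its ends. Each match describes letters only.

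Col5a3 is the alpha-3 chain of type V collagen, which nucleates collagen fibrils. It was 7.57, 7.23 and 7.66 in sham, 6.91, 7.50 and 6.64 in BD, 6.39, 6.10 and 6.50 in SEW and 6.92, 6.89 and 6.82 in BD/SEW. All SEW arrays lay below all others, and BD replicate 2 lay with the sham arrays. In SEW against sham Col5a3 fell by 1.16 ± 0.20 (n = 3 per group; limma adjusted p = 0.011; 95% confidence interval -1.59 to -0.72), a ratio of 0.449. The other comparisons did not pass, with -0.47 ± 0.20 in BD against sham (adjusted p = 0.41), 0.55 in BD/SEW against SEW (adjusted p = 0.11) and -0.61 in BD/SEW against sham (adjusted p = 0.13). The interaction of 1.02 ± 0.28 did not pass (adjusted p = 0.14), but did without BD replicate 2 (1.26 ± 0.22, adjusted p = 0.022).

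The fall of Col5a3 was called in 6 of 6 fits with an array left out and in 13 of 15 alternatives in all. It was lost with the cardiac marker mean as a covariate (-0.80 ± 0.23, adjusted p = 0.22) and with the adipose marker mean (-0.72 ± 0.25, adjusted p = 0.28). The sham arrays and BD replicate 2, which held the highest cardiac and adipose values, were also the highest for Col5a3. The part of the tissue that carries the cardiac and adipose markers in this fall was not tested beyond these fits. Within SEW against sham those markers and the treatment cannot be told apart. Of the mesothelial markers, 4 of the 5 listed were measured, with a mean of 6.57 to 8.63 in sham and 6.19 to 6.52 in SEW.

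Col1a1 and Col14a1 were likewise highest in the sham arrays and BD replicate 2, without passing. Col1a1, the main chain of type I collagen, was 11.58, 11.11 and 10.91 in sham, 10.76, 11.47 and 10.23 in BD, 10.30, 9.56 and 10.36 in SEW and 10.34, 10.25 and 10.74 in BD/SEW. Its difference in SEW against sham was -1.13 ± 0.31 (adjusted p = 0.055). Col14a1, a fibril-associated collagen, was 9.65, 9.11 and 9.45 in sham, 8.65, 9.77 and 8.68 in BD, 7.65, 8.60 and 8.65 in SEW and 8.52, 8.22 and 8.36 in BD/SEW. It differed by -1.10 ± 0.32 in SEW against sham (adjusted p = 0.064) and by -1.04 ± 0.32 in BD/SEW against sham (adjusted p = 0.12). BD replicate 2 was the highest BD array for both genes. Without it both passed in SEW against sham, Col1a1 at -1.13 ± 0.25 (adjusted p = 0.026) and Col14a1 at -1.10 ± 0.24 (adjusted p = 0.025). That array is in neither of these groups, so the differences themselves did not change. The SE, which uses the spread shared by all groups, became smaller. Without SEW replicate 2 the Col1a1 difference was -0.87 ± 0.31 (adjusted p = 0.14). When every probe set was tested (3.54% of all probe sets called in SEW against sham), second probe sets of both genes passed, Col1a1 at -1.32 ± 0.32 (adjusted p = 0.046) and Col14a1 at -1.09 ± 0.23 (adjusted p = 0.034).

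Of the 11 fibrillar collagens, 1 fell in SEW against sham and the group's median was -0.19 beside 0.02 for all genes. Col3a1, the type III chain, averaged 13.13 ± 0.20 in sham and 13.05 ± 0.32 in BD, with 12.67 ± 0.31 in SEW and 12.78 ± 0.23 for BD/SEW (SD, n = 3), and no comparison passed. Col2a1, the collagen of cartilage, was 0.20 ± 0.07 higher in BD than in sham (adjusted p = 0.32). Its values of 5.31 to 5.67 lay around the lower quartile of the arrays, which was 5.56 to 5.66, and 6 cartilage markers averaged 5.47 to 5.77. Lum (lumican), a proteoglycan of collagen fibrils, was 9.57 to 10.25 in sham and 9.00 to 9.18 in SEW (difference -0.74, adjusted p = 0.13). In BD/SEW against BD the smallest p-values belonged to Col14a1 (-0.67 ± 0.32, adjusted p = 0.91), Col26a1 (-0.22 ± 0.11, adjusted p = 0.91) and Lum (-0.56 ± 0.28, adjusted p = 0.92).

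**Figure D4:**
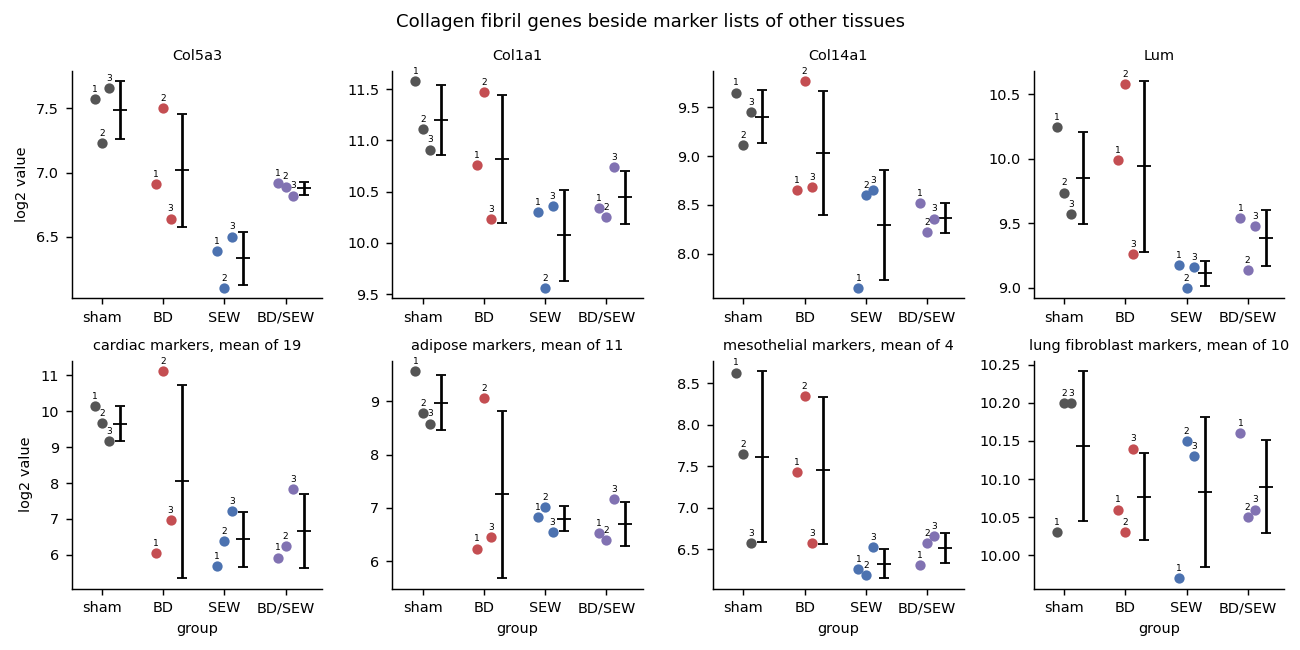
Log2 value (vertical axis) of Col5a3, Col1a1, Col14a1 and Lum above the mean of cardiac, adipose, mesothelial and lung fibroblast markers in the 4 groups (horizontal axis); points are arrays with their replicate number, and the bar is the mean ± SD (n = 3). BD replicate 2 stands with the sham arrays in the collagen genes as in the cardiac and adipose markers. The mean of the 10 fibroblast markers, which moved in both directions singly, stays between 9.97 and 10.20.

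The remaining groups of collagens showed no called gene in any comparison. Among the 7 basement membrane collagens, Col4a1, a core chain of type IV collagen, averaged 12.53 ± 0.30 in sham and 12.51 ± 0.20 in BD, with 12.51 ± 0.18 in SEW and 12.38 ± 0.13 for BD/SEW (SD, n = 3). The differences of these 7 genes ran from -0.06 to 0.15 in BD against sham. Among 10 beaded filament, network and anchoring collagens, Col6a3, a chain of type VI collagen, averaged 12.20 to 12.36 over the 4 groups. Col8a2, a network collagen, was 8.86, 8.86 and 8.71 in BD/SEW and 8.51, 7.76 and 8.47 in SEW, where the groups did not overlap. That difference was 0.56 ± 0.18 and did not pass (adjusted p = 0.078), and it was 0.32 ± 0.13 without SEW replicate 2 (adjusted p = 0.17). Of the 9 fibril-associated and 4 transmembrane collagens, Col12a1 averaged 9.77 to 9.98 and Col13a1 10.97 to 11.25 over the groups.

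Fibulin-1 (Fbln1), a glycoprotein of elastic fibres and basement membranes, was 8.87, 8.83 and 9.07 in sham, 8.54, 8.64 and 9.10 in BD, 8.31, 8.44 and 8.59 in SEW and 9.14, 8.87 and 8.91 in BD/SEW. The SEW arrays lay below all sham and BD/SEW arrays. The difference was 0.53 ± 0.15 in BD/SEW against SEW (limma adjusted p = 0.052) and -0.48 in SEW against sham (adjusted p = 0.084), so neither passed. The interaction was 0.69 ± 0.22 (adjusted p = 0.21). A second Fbln1 probe set differed by -0.09 ± 0.17 in BD/SEW against SEW (adjusted p = 0.83), of the opposite sign, and by -0.39 ± 0.17 in SEW against sham (adjusted p = 0.2). Of the 6 elastin, fibrillin and fibulin genes, 0 were called in any comparison. Fbn1, fibrillin-1, averaged 11.24 ± 0.46 in sham and 11.35 ± 0.08 in BD, with 11.18 ± 0.50 in SEW and 11.13 ± 0.10 for BD/SEW, with low values of 10.71 in sham replicate 3 and 10.61 in SEW replicate 2.

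Elastin gave opposite answers in its 2 probe sets. The one with the higher mean was 10.66, 10.50 and 10.45 in sham, 10.55, 10.16 and 9.96 in BD, 10.23, 8.86 and 10.32 in SEW and 10.48, 10.34 and 10.43 in BD/SEW. Its difference of -0.73 in SEW against sham did not pass (adjusted p = 0.16) and was -0.26 ± 0.15 without SEW replicate 2. The second Eln probe set was 7.59, 7.61 and 8.43 in sham, 8.35, 7.78 and 8.56 in BD, 8.60, 9.59 and 9.30 in SEW and 7.45, 7.67 and 7.47 in BD/SEW. There the SEW arrays were the highest.

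Among all probe sets (7.48% called in BD/SEW against SEW), this second Eln probe set rose by 1.29 ± 0.29 in SEW against sham (adjusted p = 0.039) and fell by 1.63 ± 0.29 in BD/SEW against SEW (adjusted p = 0.0061). Without SEW replicate 2 the first was 1.07 ± 0.31 and did not pass (adjusted p = 0.10), and the second was -1.42 ± 0.31 and passed (adjusted p = 0.022). The Eln probe sets disagreed by 2.02 in SEW against sham and by 2.25 in BD/SEW against SEW, the largest disagreement among the 28 second probe sets of the 69 genes in each. No direction for elastin follows from these values. Over all 28, the sign matched that of the main probe set in 17 in SEW against sham and in 13 in BD/SEW against SEW.

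Of the 69 genes, Loxl1, Eln and Loxl2 lay farthest below their own means in SEW replicate 2, with deviations of -1.73, -1.39 and -1.23. Loxl1, which cross-links elastin, was 9.07 in that array and 10.65 to 11.43 in the other 11. Loxl2 was 6.93 there and 7.68 to 8.84 elsewhere. Lox, the founding member of the family, showed no such dip, with 12.04 in SEW replicate 2 and 11.17 to 12.04 elsewhere. None of the 4 lysyl oxidases was called in any comparison.

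Of the 16 measured genes of collagen folding and processing, 9 had their highest value of the 12 arrays in SEW replicate 2 and 3 their lowest. P4ha1, a prolyl hydroxylase subunit, was 12.88 in that array and 9.62 to 10.03 in the other 11. Plod2, a lysyl hydroxylase, was 11.44 against 8.97 to 9.95, and Plod1 was 11.11 against 9.47 to 9.79. The prolyl hydroxylase subunit P4ha2 was 11.78 against 10.09 to 10.94. Serpinh1, the collagen chaperone of the endoplasmic reticulum, was 12.53 against 10.74 to 11.37. The 3 lowest there were Bmp1, a procollagen proteinase (10.13, with 11.42 to 12.12 in the sham and BD arrays), its enhancer Pcolce (8.78 against 8.92 to 9.23) and P4ha3 (7.94 against 7.95 to 8.51). These 8 genes did not pass in SEW against sham, and they are named after their values were seen.

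**Figure D5:**
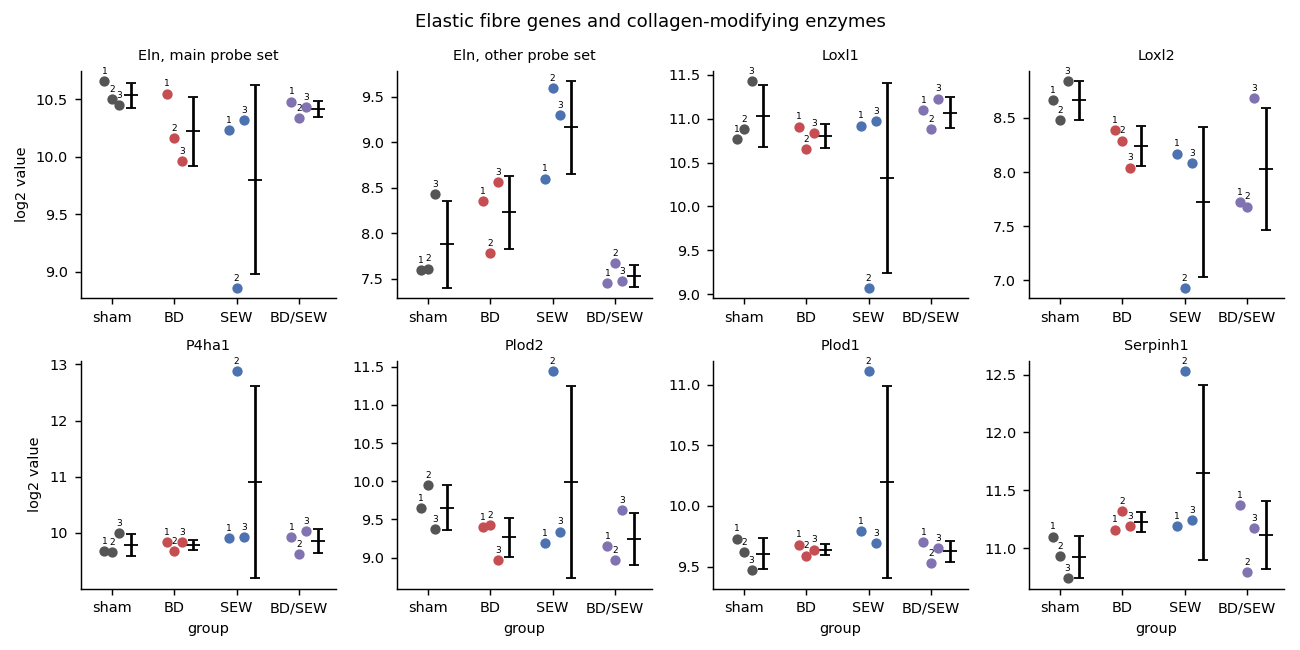
Log2 value (vertical axis) of both Eln probe sets, Loxl1, Loxl2, P4ha1, Plod2, Plod1 and Serpinh1 in the 4 groups (horizontal axis); points are arrays with their replicate number, and the bar is the mean ± SD (n = 3). SEW replicate 2 is the lowest point for the main Eln probe set, Loxl1 and Loxl2 and the highest for the second Eln probe set and for the 4 collagen-modifying genes.

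Of these 16 genes, 2 rose in SEW against sham and 0 fell, where 5.84% of all genes were called. These were Colgalt1, a collagen galactosyltransferase (0.44 ± 0.11, n = 3 per group; limma adjusted p = 0.042), and Plod3, a lysyl hydroxylase (0.49 ± 0.13, adjusted p = 0.047). Neither passed without SEW replicate 2 (adjusted p = 0.091 and 0.11) or without sham replicate 3 (adjusted p = 0.11 and 0.12). No gene of this list was called in the other comparisons.

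Fibronectin, Sparc and periostin (Postn), which bind or organise collagen, were not called. Sparc averaged 12.91 ± 0.46 in sham and 12.97 ± 0.20 in BD, with 13.23 ± 0.06 in SEW and 12.95 ± 0.10 for BD/SEW (SD, n = 3). Its sham spread in this probe set came from replicate 3, at 12.38, while replicates 1 and 2 were at 13.23 and 13.11. Fn1 and Col6a1 were likewise lowest in sham replicate 3, at 11.95 and 10.70. A second Sparc probe set did not share this pattern. It was 12.39, 11.68 and 12.61 in sham, with replicate 3 the highest, and 12.75, 11.38 and 12.64 in SEW. Postn was 12.30 to 12.66 in sham and 12.69 to 12.88 in BD, a difference of 0.25 (adjusted p = 0.56) that was 0.13 ± 0.14 without sham replicate 3 (adjusted p = 0.76). Bgn (biglycan), a small leucine-rich proteoglycan, averaged 11.26 to 11.35 over the groups.

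Outside the 69 genes, the large proteoglycan versican (Vcan) changed the most among the matrix lists. It was 10.43, 10.52 and 9.72 in sham, 9.00, 9.40 and 9.88 in BD, 7.35, 9.02 and 7.78 in SEW and 9.96, 9.93 and 9.47 in BD/SEW. The SEW arrays lay below those of sham and of BD/SEW. Vcan fell by 2.17 ± 0.38 in SEW against sham (n = 3 per group; limma adjusted p = 0.013) and rose by 1.74 ± 0.38 in BD/SEW against SEW (adjusted p = 0.015). The fall was not called with the cardiac marker mean as a covariate (-2.12 ± 0.54, adjusted p = 0.18), and the rise was (1.73 ± 0.40, adjusted p = 0.021). Of the 13 genes in its list, Vtn (vitronectin) rose by 0.73 ± 0.18 in SEW against sham (adjusted p = 0.038), which was lost without SEW replicate 2 (adjusted p = 0.09).

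Of the 14 microfibril accessories, 1 rose and 1 fell in BD/SEW against SEW, where 9.79% of all genes were called. Emilin2, an elastin-associated glycoprotein, was 8.54, 10.23 and 8.24 in SEW and 10.46, 10.70 and 10.40 in BD/SEW. It rose by 1.52 ± 0.43 (adjusted p = 0.048), and by 2.13 ± 0.27 without SEW replicate 2 (adjusted p = 0.0009). It was not called without sham replicate 3 (adjusted p = 0.054), without BD replicate 2 (adjusted p = 0.052) or with the adipose covariate (adjusted p = 0.059). Of the 16 matrix receptors 1 rose, the integrin subunit gene Itgb3, by 1.22 ± 0.28 (adjusted p = 0.017), which was not called without SEW replicate 2 (0.97 ± 0.27, adjusted p = 0.054).

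Of 14 genes of TGF-beta signalling, which drives matrix production, 1 rose in SEW against sham, and 1 rose and 1 fell in BD/SEW against SEW (5.84% and 9.79% of all genes were called). Smad6, an inhibitory member of the SMAD family, was 11.26, 11.12 and 11.30 in SEW and 9.50 to 10.62 in the other 9 arrays. It rose by 1.33 ± 0.27 in SEW against sham (n = 3 per group; limma adjusted p = 0.021) and fell by 1.44 ± 0.27 in BD/SEW against SEW (adjusted p = 0.0062). The rise was not called without sham replicate 3 (adjusted p = 0.068) or with the cardiac covariate (0.88 ± 0.33, adjusted p = 0.32). Smad7, another inhibitory SMAD, was not called in SEW against sham (0.60 ± 0.18, adjusted p = 0.074). Skil, a repressor of SMAD activity, rose by 0.49 ± 0.11 in BD/SEW against SEW (adjusted p = 0.013). Of the 7 basement membrane partners none was called in any comparison.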

How the data were processed

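The authors deposited log2 values per probe set for 12 arrays, with 3 arrays per group. RMA, MAS5 and affy are named per the submitters' processing notes, without version or role, and at any rank the arrays lay within 0.22 of each other. Signal over background was not measured, and raw array files were not used here. Of the probe sets, 20826 had 1 gene symbol, 436 had several and 9780 had none. For the 4525 genes with several probe sets, the one with the highest mean was used, leaving 14217 genes. All 69 symbols matched the RefSeq table of GRCr8, and 18 of the 69 genes have no promoter window. Collagen chains resemble each other in sequence, and shared probes were not tested.

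Genes were compared with limma 3.58.1 (R 4.3.3), with 1 mean per group over all 12 arrays, a mean trend in the variance, two-sided tests and Benjamini-Hochberg adjustment over all genes. The genes and lists were chosen with earlier results of these data known. Named genes are those called, the 3 with the smallest p in each comparison, the highest in each role group, and up to 3 by p in each list of other matrix genes. Loxl1, Loxl2, Eln, Lum, Lamb1, Lama5, Loxl3, Postn, Fn1, Col6a1, P4ha1, P4ha2, Plod1, Plod2, Serpinh1, Bmp1, Pcolce and P4ha3 fall outside this rule, at least in the comparison given, and were chosen after their values were seen. On simulated data for SEW against sham, with 200 of 14217 genes changed in each of 10 draws, the test found 52.6% of genes changed 1.5-fold, 85.3% at 2-fold and 97.5% at 4-fold, with 9 false calls per draw. Alternatives were a fit on the arrays compared, a replicate block, array weights, every probe set, a filter at the 25th percentile (which 14 of the 69 genes did not pass), no mean trend, and each array left out. Leaving out sham replicate 3, BD replicate 2 and SEW replicate 2 together, and the cardiac or adipose covariate, were added after seeing the data.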

Additional observations from a re-analysis of the deposited data

Results flagged for a closer look

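Col8a1, a short-chain network collagen, differed in the opposite direction in the brain-death comparisons without and with the agonist. Against sham, with values of 7.66, 7.58 and 7.67, the BD arrays were lower in every array at 7.45, 7.56 and 7.56 (difference -0.11, adjusted p = 0.82). Against SEW, with values of 7.32, 6.95 and 7.45, the BD/SEW arrays were higher in every array at 7.68, 7.51 and 7.48 (difference 0.32, adjusted p = 0.15). The limma interaction was 0.43 and did not pass (adjusted p = 0.36). The lowest SEW value belongs to SEW replicate 2, without which the difference from SEW was 0.17 ± 0.11 (adjusted p = 0.42) and the interaction 0.29 ± 0.14 (adjusted p = 0.48).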

How the results depend on the processing

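Counts of called genes among the 69 moved with some settings. A count given without the share of all genes called under that setting is not a result about the 69 in particular. With the compared arrays only BD/SEW against SEW gave 3 and BD/SEW against sham 3. With array weights BD against sham gave 1, SEW against sham 2, BD/SEW against SEW 2 and BD/SEW against sham 13, where calls over all genes went from 2.87% to 18.9%. With every probe set SEW against sham gave 4 (3.54% of all probe sets) and BD/SEW against SEW 2 (7.48%). With the filter on low values, which tests fewer genes, BD against sham gave 1, SEW against sham 2 and BD/SEW against SEW 2, and without the mean trend BD/SEW against SEW gave 2. With each array left out in turn, the range was 0 to 1 in BD against sham and also in the interaction, 0 to 2 in BD/SEW against sham, and 1 to 2 in BD/SEW against SEW. With the 3 arrays that stand apart left out, BD against sham gave 2, SEW against sham 4, the interaction 1, BD/SEW against sham 8 (8.16% of all genes), and BD/SEW against SEW 3. With the cardiac or the adipose covariate SEW against sham and BD/SEW against sham gave 0. The replicate block gave 3 in BD/SEW against SEW (Col8a2, Fbln1 and Lama4) and changed no other count by more than 1.5 times. Deviations of arrays that share a number correlated between -0.19 and 0.38. Arrays with different numbers were not set beside them, so these values do not show whether the numbers pair the samples. For BD/SEW against BD no count moved. The difference of Col5a3 in BD/SEW against BD, -0.14 and not called, became 0.1 without BD replicate 2 (-0.33 to 0.1 over the fits with an array left out), 0.1 without the 3 arrays and 0.01 with the cardiac covariate. Of the other single-gene values under these settings, 330 kept direction and side of the threshold, 23 newly passed it and 6 no longer did. Apart from the settings that use fewer arrays or genes, the cause was not tested.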
